A study of Homo sapiens with 6 samples.

Results

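CTCF loci that were called in both inflachromene-treated and senescent IMR90, but not in control IMR90, were examined in CUT&Tag peak lists. CUT&Tag uses an antibody to tether a transposase to its target, so that the DNA around the target is cut and sequenced. Peaks of the 3 CTCF lists on chromosomes 1 to 22 and X were merged into one locus wherever they overlapped by at least 1 bp, which gave 9720 CTCF loci. The loci were chosen by these lists themselves, as those with a peak from ICM-treated and from senescent cells and none from control cells. There were 1428 of them (14.7% of all CTCF loci), called shared loci from here on. Another 4026 loci were in all 3 lists, 913 in the ICM list alone and 2750 in the senescent list alone.

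IMR90 are primary fibroblasts of human fetal lung, and all 6 libraries (3 with an antibody to CTCF and 3 to SMC1 of cohesin) carry the same line tag in their titles. The CTCF control came from cells with the p number 21 and the SMC1 control from cells with the p number 16. ICM-treated cells had the p number 16 for both antibodies, and the CTCF title gives 6 days of treatment while the SMC1 title gives no duration. Cells with the p number 34 carry no treatment in their titles and were taken as senescent because the design lists a senescent sample of high passage for each antibody. Each group is 1 library, so conditions were described and not tested. Intervals are exact 95% binomial intervals, or order-statistic intervals for medians. They cover counting over loci only and not the variation between cultures. The p number differed between the CTCF control and the ICM-treated cells, and this difference cannot be told apart from treatment.

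CTCF is a zinc finger protein that binds a long GC-rich motif and blocks the movement of cohesin along DNA. Cohesin is the ring-shaped complex of SMC1, SMC3 and RAD21 that extrudes chromatin loops, and loops often end at sites where both proteins are found. ICM (inflachromene) binds HMGB1 and HMGB2, DNA-bending proteins that leave the nucleus when human fibroblasts become senescent, and CTCF gathers in large nuclear clusters in senescent cells of this kind.

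Promoter sequences are shown first, because they let the letters under the shared peaks be read directly. RefSeq windows (GRCh38.p14) of the 250 bases before a start site were taken for protein-coding genes with the highest signal of a shared locus, in either list, over the window. From the 8 such windows with the highest ranks, those printed are the 5 in which the middle of the highest signal lay inside the window both after ICM and in senescence. The 3 not printed are those of RPP25L, DNM1 and BAK1. Each sequence runs 5′ to 3′ towards the start site of the named gene, and capitals mark matches to AGNNGGCNC, letters of the CTCF core, or to the shorter CAGNGGGC, on either strand.
GLIPR1L1 (chr12:75334420-75334669, plus strand): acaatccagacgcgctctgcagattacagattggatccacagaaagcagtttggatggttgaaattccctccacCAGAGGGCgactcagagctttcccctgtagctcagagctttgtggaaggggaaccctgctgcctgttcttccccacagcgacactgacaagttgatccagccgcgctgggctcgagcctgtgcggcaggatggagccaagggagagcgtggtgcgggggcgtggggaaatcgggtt
ATP5ME (chr4:674277-674526, minus strand): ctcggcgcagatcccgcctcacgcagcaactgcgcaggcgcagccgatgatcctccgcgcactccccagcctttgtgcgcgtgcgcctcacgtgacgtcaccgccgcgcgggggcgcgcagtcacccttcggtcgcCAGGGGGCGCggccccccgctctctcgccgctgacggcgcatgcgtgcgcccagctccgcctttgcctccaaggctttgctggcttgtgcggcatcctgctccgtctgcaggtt
FBXO34 (chr14:55271171-55271420, plus strand): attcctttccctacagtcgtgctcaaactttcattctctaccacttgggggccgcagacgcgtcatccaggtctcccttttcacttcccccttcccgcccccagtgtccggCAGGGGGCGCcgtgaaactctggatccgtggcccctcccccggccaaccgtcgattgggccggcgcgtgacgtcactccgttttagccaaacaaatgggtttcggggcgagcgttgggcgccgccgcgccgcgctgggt
SLC25A44 (chr1:156193854-156194103, plus strand): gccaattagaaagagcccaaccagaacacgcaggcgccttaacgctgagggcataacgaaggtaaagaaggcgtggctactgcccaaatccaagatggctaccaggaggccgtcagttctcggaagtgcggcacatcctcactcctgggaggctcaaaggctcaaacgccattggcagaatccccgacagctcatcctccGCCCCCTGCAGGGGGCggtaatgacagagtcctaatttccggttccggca
CD8A (chr2:86808397-86808646, minus strand): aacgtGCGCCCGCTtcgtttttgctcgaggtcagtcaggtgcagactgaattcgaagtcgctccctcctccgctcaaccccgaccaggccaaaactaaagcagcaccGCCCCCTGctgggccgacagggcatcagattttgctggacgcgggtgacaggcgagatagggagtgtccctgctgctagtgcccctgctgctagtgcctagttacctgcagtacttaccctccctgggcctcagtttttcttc

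The shorter letters were chosen after these windows had been read, and their match in all 5 is a description of these windows. Among the windows not printed, those of RPP25L and DNM1 held neither set of letters. The window of BAK1 held the shorter letters but not AGNNGGCNC. Both sets of letters share a stretch, so matches can overlap, as at ATP5ME and FBXO34. The place of a match is that of its first printed base. In the GLIPR1L1 window the match began 176 bases before the start site, and the middle of the highest signal lay 101 bases before it after ICM and 143 bases before it in senescence. In the CD8A window 2 matches on the opposite strand began 245 and 143 bases before the start site, with the highest signal 174 and 178 bases before it. In the ATP5ME window both lists placed the highest signal 182 bases before the start, and the matches began 114 and 113 bases before it. In the FBXO34 window the highest signal lay 122 bases before the start in ICM-treated and 180 in senescent cells, and the matches began 139 and 138 bases before it. In the SLC25A44 window 2 matches in opposite directions began 50 and 42 bases before the start, with the highest signal at 68 and 109 bases.

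Most windows under shared peaks at promoters held no such letters. AGNNGGCNC was found in 43 of 153 windows that lay under the highest signal of a shared locus (28.1%, 21.1 to 35.9). The same letters were in 24.1% of all 22132 protein-coding promoter windows, and the interval of the shared loci holds that value. Windows under the highest signal of loci in all 3 lists held them in 44.8% of 815 cases (41.3 to 48.3). CAGNGGGC was in 26 of the 153 windows (16.99%, 11.4 to 23.9), in 11.4% of all windows and in 27.6% of the windows of loci in all 3 lists. Only promoter windows of 250 bases were read, and a window without these letters says nothing about other forms of the motif.

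Shared loci ranked low in the ICM list and close to the middle of the senescent list. Ranks are percentiles of total signal, the coverage summed over a peak, within a peak's own list. The lists differ in length (6728 ICM and 8577 senescent peaks), so percentiles of different lists are not on the same scale. Ranks within CTCF lists of equal length were not computed. The rule used the presence of these peaks, so their ranks are a description. The median percentile of shared loci was 24.2 in the ICM list (22.8 to 25.5) and 43.7 in the senescent list (41.7 to 45.5). Loci in all 3 lists had medians of 68.9 and 74.8, loci in the ICM list alone 18.6, and loci in the senescent list alone 24.96. A total of 161 shared loci (11.3%) reached the upper 50% of the ICM list and 586 (41.0%) that of the senescent list. Both were reached by 89 loci (6.23%), and 3 loci reached the 75th percentile in both.

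**Figure D1:**
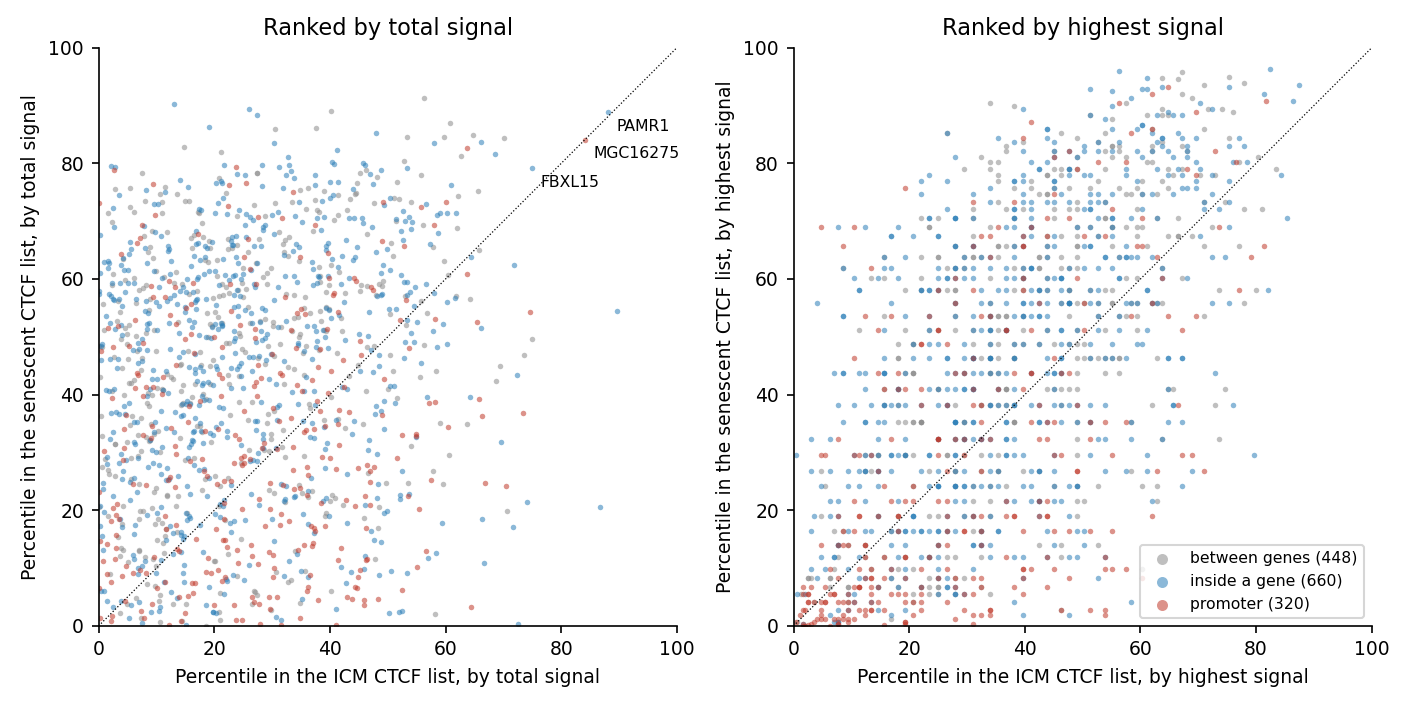
Each point is one of the 1428 shared loci, placed by its percentile in the ICM CTCF list (horizontal) and in the senescent CTCF list (vertical), ranked by total signal on the left and by the highest signal of the peak on the right. Colours give the place of the locus, the dotted line marks equal percentiles, and the promoter loci lie towards the lower left of the right panel, with medians of 27.9 and 18.9.

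The order of the shared loci was shared only weakly between the lists by total signal, with a Spearman rank correlation of 0.16 over 1428 loci, and more strongly by highest signal, with 0.60. Over the 4026 loci in all 3 lists these values were 0.59 and 0.66. Peak width enters the total signal, and the points of each correlation come from the same pair of libraries. The quartiles of shared loci by total signal were 11.8 and 39.1 in the ICM list. How far this limited range lowers their correlation was not tested. By highest signal the median percentiles of shared loci were 36.7 after ICM and 45.0 in senescence.

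At the edge of the rule, the shared locus closest to a control peak lay 154 bp from it, at 7427 bp from the 5′ end of P2RX3, a subunit of an ATP-gated channel. The next closest lay 337 bp from a control peak near CACNB3, 389 bp near SGK1 and 398 bp near CAPN13. Just outside, a locus 1145 bp from the 5′ end of WNT5A, a secreted signalling ligand, touched its control peak over 193 bp and was left out for it. The lowest total signal of a shared locus was 20161 in the ICM list, near MYL2, and 6267 in the senescent list. The weakest control peak that kept a locus out, near TXK, had a total signal of 14246. A locus with no control peak is one that did not enter the control list, and its signal in control cells is not in these lists.

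The median gap from a shared locus to the nearest control CTCF peak was 94.6 kb, 17 loci (1.19%) lay within 1 kb of one, 114 (7.98%, 6.63 to 9.51) within 5 kb and 728 (51.0%) within 100 kb. With loci built from 100 bp windows on the summits instead of whole peaks, 22.4% lay within 5 kb of a control peak. The control list was the shortest, with 4673 peaks against 6728 and 8577. With every CTCF list shortened to the 4673 peaks of highest total signal, 294 shared loci were left (20.6% of the 1428). All 294 lay on loci of the full set. This was nearly fixed in advance, because the control list stayed whole and the shortened lists are parts of the full ones.

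Peaks of shared loci were wider in ICM-treated than in senescent cells, and their summits nearly coincided. The median width was 1694 bp (1656 to 1735) in the ICM list, with a range of 642 to 6350 bp. It was 1038 bp (1014 to 1062) in the senescent list, with a range of 344 to 3406 bp. The ICM peak was the wider one at 1337 shared loci (93.6%), with a median ratio of 1.56. Loci in all 3 lists also had the wider peak in ICM-treated cells in 90.9% of cases, with a median ratio of 1.45, so the direction was that of the lists as a whole. The summit, taken as the middle of the region of highest signal, differed by a median of 21 bp (17 to 24) between the lists. At 1227 shared loci (85.9%, 84.0 to 87.7) the summits were within 100 bp of each other, and at loci in all 3 lists this was so in 79.5%. All 1428 shared loci held 1 ICM peak, 1422 held 1 senescent peak and 6 held 2.

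**Figure D2:**
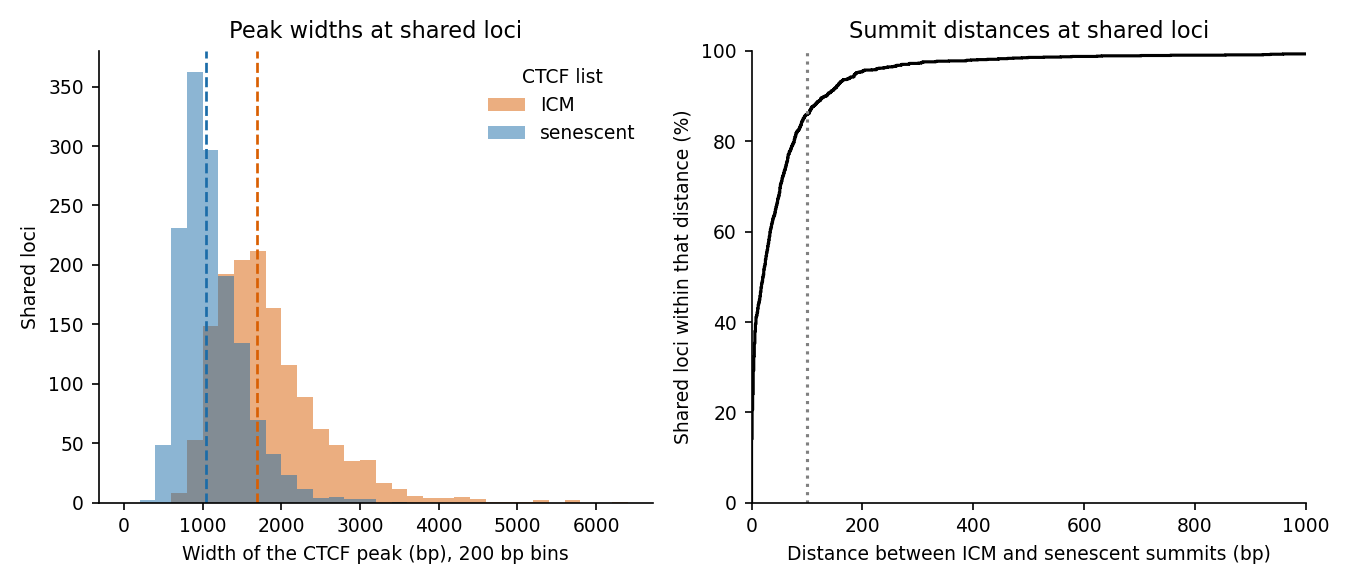
The left panel shows the widths of the ICM and senescent CTCF peaks at the 1428 shared loci in bins of 200 bp, with dashed lines at the medians of 1694 and 1038 bp. The right panel shows the share of shared loci whose ICM and senescent summits lay within a given distance (drawn to 1000 bp), and the dotted line at 100 bp meets it at 85.9%.

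Fewer than 1 in 4 shared loci lay at a promoter, and the rest lay inside genes or between them. A summit at most 1 kb from the 5′ end of any gene was found at 320 shared loci (22.4%, 20.3 to 24.7), against 32.6% of all CTCF loci. It was 13.3% (9.61 to 17.7) of the 294 shared loci left with CTCF lists of equal length, and 13.5% of the 89 in the upper 50% of both lists. The share was 40.6% (39.0 to 42.1) at loci in all 3 lists, 59.7% (56.4 to 62.9) at ICM-only loci and 11.8% (10.6 to 13.1) at senescent-only loci. Another 660 shared loci (46.2%) had their summit inside a gene away from promoters and 448 (31.4%) between genes. Exons and introns were not told apart. The median distance to a 5′ end was 8733 bp, compared with 2947 bp at loci in all 3 lists, 350 bp at ICM-only loci and 9750 bp at senescent-only loci.

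Shared loci at promoters differed from the others in peak height more than in width. By highest signal their median percentile was 27.9 in the ICM list and 18.9 in the senescent list. Shared loci inside genes had 38.2 and 48.8, and those between genes 39.7 and 53.5. Median widths at promoters were 1759 bp after ICM and 1125 bp in senescence, and between genes 1627 bp and 1007 bp. The summits of both lists lay within 100 bp of each other at 74.1% of shared promoter loci and at 89.3% of those between genes.

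Shared loci were found on all 23 chromosomes examined. The share of CTCF loci that were shared ran from 11.4% on X (15 of 132) to 19.4% on chromosome 4 (46 of 237). Another shared locus within 100 kb was present for 332 (23.2%) and within 10 kb for 48 (3.36%). The densest stretches of up to 500 kb held 6 shared loci each. One, on chromosome 17, had shared loci nearest to MED24, NR1D1, RAPGEFL1, RARA and GJD3, and 5 of the 13 CTCF loci were in the control list. NR1D1 encodes the circadian repressor REV-ERB alpha and RARA a retinoic acid receptor. On chromosome 19 a stretch with CXCL17, CEACAM8 and the pregnancy-specific glycoprotein genes PSG8 and PSG1 held 17 CTCF loci, of which 6 were shared and 3 were in the control list. On chromosome 1, a stretch with shared loci nearest to PADI4, a histone citrullinase gene, RCC2 and ARHGEF10L held 5 shared loci among 7, and 1 of the 7 was in the control list.

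SMC1 lists were not used to choose the loci. SMC1 peaks were found at fewer shared loci in control cells than in ICM-treated cells. In control cells 646 shared loci had an SMC1 peak (45.2%, 42.6 to 47.9), against 55.7% of all CTCF loci. In ICM-treated cells 835 had one (58.5%, 55.9 to 61.0), against 60.3% of all CTCF loci. In senescent cells 664 had one (46.5%, 43.9 to 49.1), against 52.1% of all CTCF loci. The control and senescent intervals overlapped, and the ICM interval lay above both. By the rule, none of the 646 loci with control SMC1 had a control CTCF peak, and the controls of the 2 antibodies differ in p number.

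**Figure D3:**
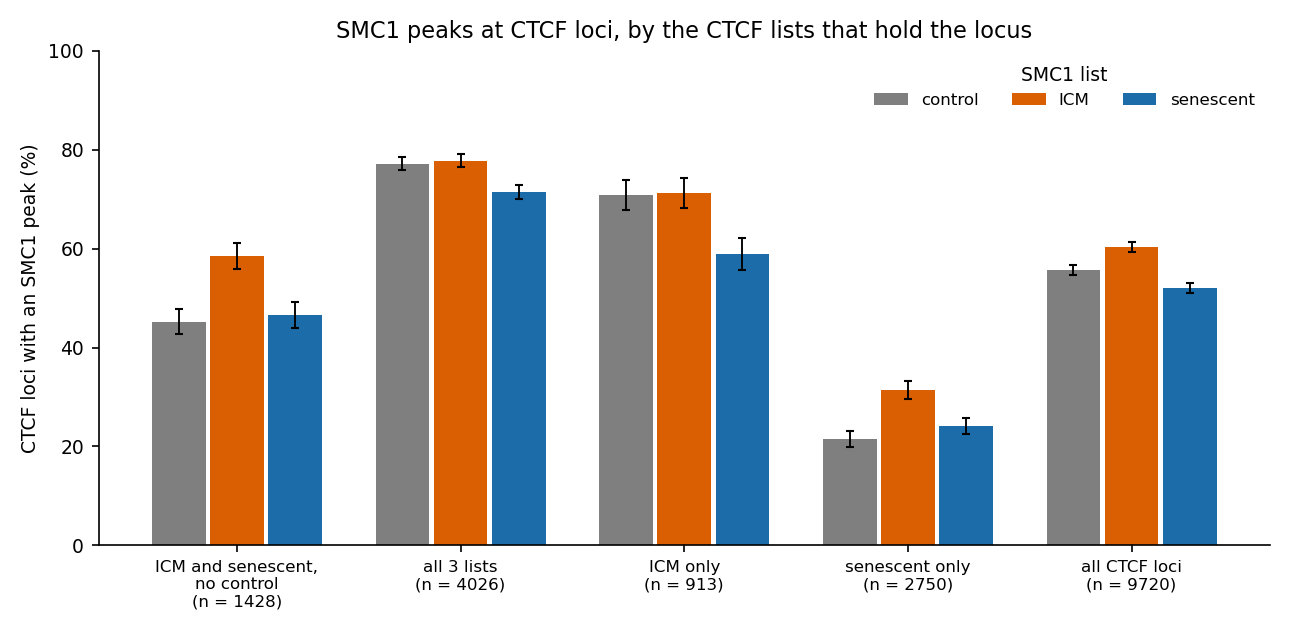
Bars give the percentage of CTCF loci with an SMC1 peak in control, ICM-treated and senescent cells, grouped by the CTCF lists that held the locus, and whiskers are exact 95% intervals over loci. Shared loci (45.2, 58.5 and 46.5%) sit between loci in all 3 lists (77.2, 77.8 and 71.4%) and senescent-only loci (21.5, 31.4 and 24.1%).

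The difference between the ICM and control SMC1 shares was 13.2 percentage points at shared loci. It was 0.60 points at loci in all 3 lists, 0.44 points at ICM-only loci, 9.96 points at senescent-only loci and 4.67 points over all CTCF loci. At shared loci 257 had SMC1 in ICM-treated but not in control cells and 68 the reverse. For senescent against control cells the counts were 200 and 182, and the shares differed by 1.26 points. The SMC1 lists themselves differed in length, with 14883 peaks for control cells, 17809 after ICM and 12927 in senescence. With the lists shortened to 12927 peaks each, an SMC1 peak was at 51.1, 51.0 and 52.1% of all CTCF loci in control, ICM-treated and senescent cells. At shared loci the shares then became 40.1% (37.5 to 42.7), 45.7% (43.1 to 48.3) and 46.5%. The ICM share moved down by more than its interval, and the control share was then the lowest of the 3.

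The place of a shared locus went along with its SMC1 shares. At the 320 promoter loci SMC1 was present at 68.8% (63.4 to 73.8) in control cells, 67.8% (62.4 to 72.9) after ICM and 62.5% (56.9 to 67.8) in senescence. All CTCF loci at promoters had 78.6, 74.4 and 66.8%. At the 1108 shared loci away from promoters SMC1 was present at 38.4% (35.6 to 41.4), 55.8% (52.8 to 58.7) and 41.9% (39.0 to 44.8). All CTCF loci away from promoters had 44.6, 53.6 and 45.0%. The ICM and control shares away from promoters thus differed by 17.3 points at shared loci and by 8.95 points over all CTCF loci. With SMC1 lists of equal length, an alternative added after the data were seen, shared loci away from promoters had SMC1 in 32.9% in control cells (30.1 to 35.7) and in 41.9% in both other conditions (39.0 to 44.8 for each). Over all CTCF loci away from promoters these shares were 39.6, 42.9 and 45.0%. At promoters they were 65.0, 58.8 and 62.5% for shared loci and 74.8, 67.8 and 66.8% for all CTCF loci.

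**Figure D4:**
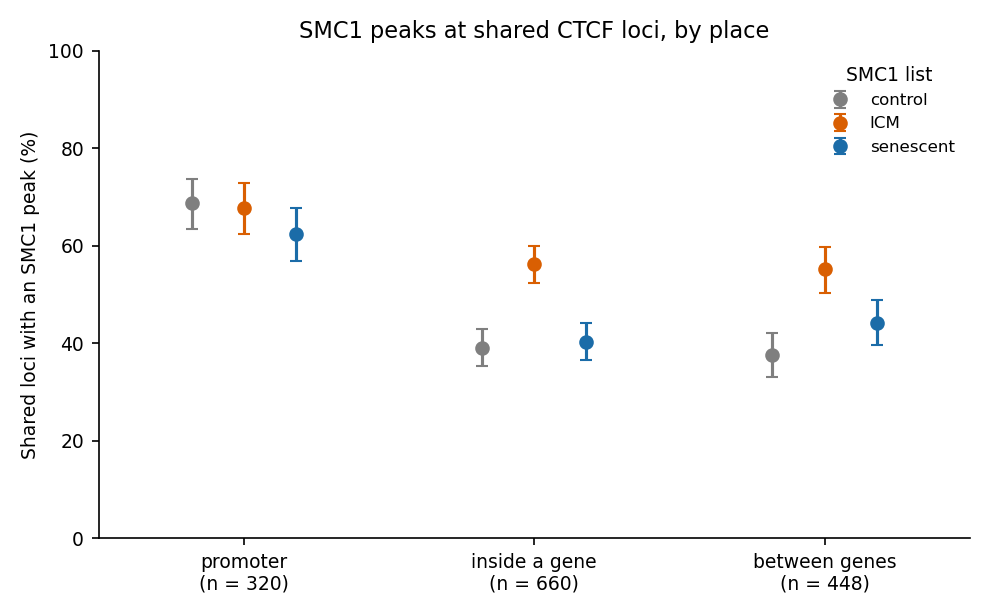
Points give the percentage of shared loci with an SMC1 peak in control, ICM-treated and senescent cells at promoters, inside genes and between genes, and whiskers are exact 95% intervals over loci. With SMC1 lists at full length, the 3 shares run from 62.5 to 68.8% at promoters. Inside genes (39.1, 56.2 and 40.3%) and between genes (37.5, 55.1 and 44.2%) the ICM share is the highest.

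When the 3 SMC1 lists were read together, 439 shared loci (30.7%, 28.4 to 33.2) had SMC1 in all 3 and 431 (30.2%, 27.8 to 32.6) in none. Over all CTCF loci 40.6% had SMC1 in all 3 and 29.0% in none, and at loci in all 3 CTCF lists 61.1% and 12.05%. SMC1 in the ICM list alone was found at 151 shared loci (10.6%, 9.03 to 12.3). Over all CTCF loci this was 6.43%, and at loci in all 3 CTCF lists 3.97%. The SMC1 lists were used here at full length, and the ICM list is the longest of them. SMC1 followed the CTCF pattern, present in ICM-treated and senescent cells and absent from the control list, at 106 shared loci (7.42%, 6.12 to 8.91), against 4.41% of all CTCF loci and 3.87% of loci in all 3 CTCF lists. Of these 106 loci 8 (7.55%) were at a promoter, compared with 37.8% of the shared loci with SMC1 in all 3 lists. The combined pattern was not counted for loci in 1 CTCF list. Of 2750 senescent-only loci, 381 had SMC1 in ICM-treated but not control cells and 318 in senescent but not control cells. At shared loci these counts were 257 and 200 of 1428, and at ICM-only loci 66 and 39 of 913. The weaker of the 2 CTCF percentiles also varied with SMC1. In the upper 25% of shared loci by that measure 64.7% (59.5 to 69.7) had SMC1 in ICM-treated cells and 24.6% had none in any list, and in the lowest 25% these values were 54.6% (49.3 to 59.9) and 33.6%. The intervals of the 2 ICM shares overlapped at their ends.

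**Figure D5:**
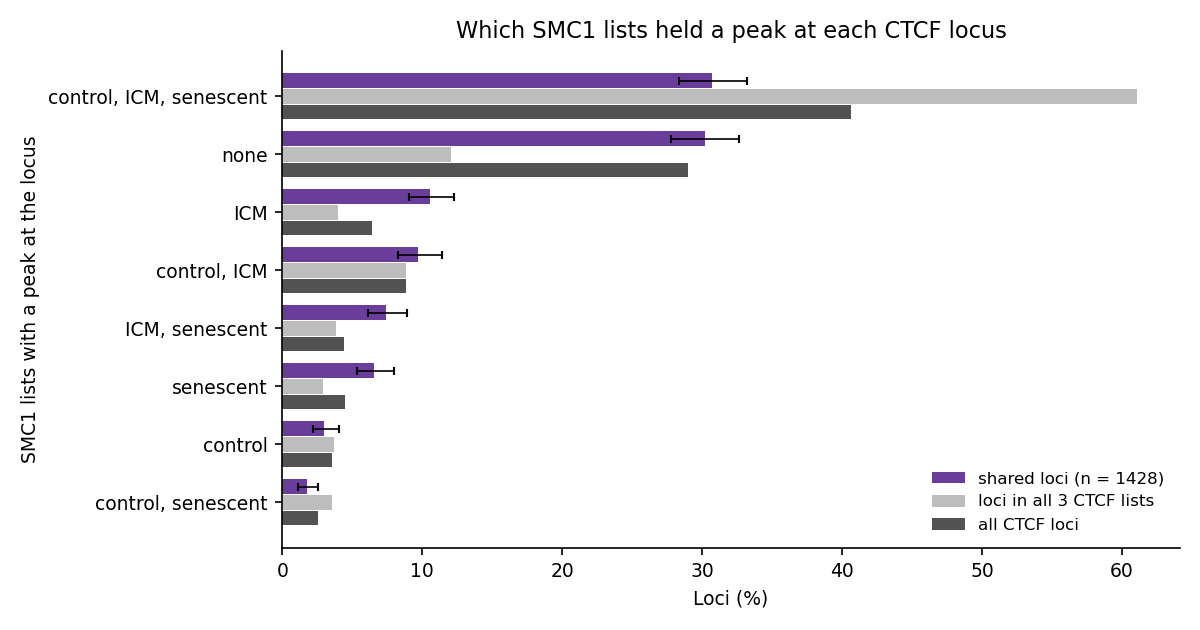
Bars give the percentage of loci with each combination of SMC1 lists, for shared loci with exact 95% intervals, for loci in all 3 CTCF lists and for all CTCF loci. SMC1 was in all 3 lists at 30.7% of shared loci and at 61.1% of loci in all 3 CTCF lists, and in the ICM and senescent lists without control at 7.42 and 3.87%.

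The highest shared loci by the weaker of both percentiles were spread over 6 chromosomes. The first lay inside PAMR1, a secreted protease-like protein, at chr11:35483942-35488867 (hg38), 43490 bp from its 5′ end. It was at percentile 88.1 in the ICM list and 88.8 in the senescent list, with peaks of 4926 and 3106 bp, and its nearest control CTCF peak was 332421 bp away. SMC1 was present there in all 3 lists, at percentiles 27.6 in control cells, 43.4 after ICM and 1.38 in senescence. The PAMR1 locus was thus high in CTCF in both lists that held it and low in SMC1 in senescent cells.

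The next lay over MGC16275, a long noncoding RNA gene, at chr17:74209920-74213774, 27 bp from the MGC16275 5′ end and 277 bp from that of TTYH2, an anion channel gene. It reached percentile 84.1 in both CTCF lists by total signal, and 13.4 and 6.80 by highest signal. Its peaks were broad, with widths of 3855 and 3406 bp, and low in highest signal. SMC1 was in the ICM list at percentile 9.97 and in the senescent list at 22.3, and not in the control list, so this was also the highest shared locus with the same pattern for both proteins.

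A locus inside FBXL15, an F-box subunit of a ubiquitin ligase, was at percentiles 75.01 and 79.1 with SMC1 in all 3 lists. A locus 9722 bp from RIPOR1 was at 70.1 and 84.3 with no SMC1 peak in any list. A locus inside TACC3, a mitotic spindle gene, 5136 bp from the 5′ end of TMEM129, was at 68.6 and 81.6 and also had no SMC1 peak. The locus over GPR84, a receptor for medium-chain fatty acids, was at 66.1 and 83.7 with SMC1 in all 3 lists. All 6 ranked at least as high in the senescent list as in the ICM list, the order that the medians of all shared loci also have.

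At protein-coding promoters the highest shared loci after TTYH2 were those of RPP25L, GLIPR1L1, MYL5, FBXO34 and RERG. RPP25L, a relative of an RNase P subunit, was at percentiles 63.7 in the ICM list and 82.7 in the senescent list, and SMC1 was in the senescent list alone, at percentile 4.18. GLIPR1L1, a sperm surface protein gene whose window is printed above, was at 63.7 and 60.8, with SMC1 in control (40.1) and ICM-treated cells (60.6). The locus of MYL5, a myosin light chain gene, and of ATP5ME, a subunit of the ATP synthase, was at 60.1 and 73.3, with SMC1 in all 3 lists. FBXO34, an F-box gene, was at 58.1 and 69.3, and SMC1 was in the ICM list alone at percentile 10.9. Its peaks of 904 and 621 bp were the narrowest of these promoters, and by highest signal it reached 81.7 and 90.8. RERG, a RAS-like growth inhibitor, was at 55.7 and 72.4 with no SMC1 peak. SMC1 at these promoters thus followed no single pattern.

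Among loci over 10 kb from any 5′ end, the highest after PAMR1 were those nearest to LPAL2, ZDHHC7 and LOC105372947. The first was 55066 bp from the pseudogene LPAL2, at CTCF percentiles 65.7 after ICM and 75.2 in senescence. Its SMC1 percentile was 15.2 in control cells, 66.1 after ICM and 18.03 in senescence. The second was 40792 bp from ZDHHC7, a palmitoyltransferase gene, at 65.7 and 65.0, and its SMC1 percentiles were 14.9, 62.9 and 18.5. Both loci were thus higher in SMC1 rank in the ICM list than in the other lists. The ICM list is also the longest (17809 peaks, against 14883 in control and 12927 in senescence), so these ranks are not on the same scale. The third was 31093 bp from the noncoding gene LOC105372947, at 64.8 and 84.9, with SMC1 in the ICM (16.7) and senescent (6.05) lists alone.

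Of the highest-ranked loci with SMC1 in the ICM and senescent lists but missing from control, those not yet described are given next. They lay inside genes, apart from the locus near OAZ2, which lay between genes. One inside GLDN, which encodes gliomedin of the nodes of Ranvier, was at CTCF percentiles 58.0 and 83.5 and at SMC1 percentiles 81.6 after ICM and 58.2 in senescence. By highest CTCF signal it reached 87.4 and 93.6. The locus 28134 bp from OAZ2, an antizyme gene of polyamine metabolism, was at 51.9 and 73.9 for CTCF and at 71.3 and 44.4 for SMC1, but its nearest control CTCF peak was 848 bp away. A locus inside WWP2, a ubiquitin ligase gene that hosts MIR140, was at 53.3 and 57.1, with SMC1 at 23.4 and 18.3. A locus inside MRTFA, the actin-regulated coactivator of SRF, was at 55.1 and 52.6, with SMC1 at 15.0 and 51.0. Of these, the GLDN locus combined the highest SMC1 ranks in both conditions. Shared loci without SMC1 in any list included, after RIPOR1 and TACC3, one near the pseudogene VPS51P4 at 62.0 and 68.8 and one inside NHSL1, an actin regulator, at 61.0 and 76.3.

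Gene lists were then read against all protein-coding genes, of which 301 of 19630 (1.53%) had a shared locus at a promoter and 911 (4.64%) had one at a promoter or over the gene. Long genes can be overlapped more often, and gene length was not taken into account. These lists were chosen with earlier results of these data known.

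Genes of the senescence-associated secretory phenotype, include the cytokines and proteases that senescent cells release. None of 38 had a shared locus at its own promoter and 1 (2.63%) was overlapped, TIMP2, an inhibitor of metalloproteases, and in a list of this size these counts are near the shares of all genes. It held 2 shared loci, at percentiles 19.3 and 13.6 in the ICM list and 9.22 and 4.75 in the senescent list. Of 34 genes of p53 and RB arrest, MDM2, the ubiquitin ligase of p53, had a shared locus 12 bp from a 5′ end. It was at percentile 43.9 in the ICM list and 4.59 in the senescent list, with SMC1 in the senescent list alone. CCND3, a G1 cyclin gene, was overlapped by one at 45.5 and 70.6, with SMC1 in control and ICM-treated cells. The MDM2 locus thus ranked higher in the ICM list, and the CCND3 locus higher in the senescent list.

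Extracellular matrix genes, a main product of fibroblasts, held shared loci over 7 of 43 genes (16.3%) and at the promoter of none. The basement membrane collagen genes COL4A1 and COL4A2 each had one inside the gene and away from promoters, at percentiles 41.0 and 35.6, and at 5.37 and 24.8. EMILIN1, an elastic fibre protein, had one at 61.8 and 71.5, 2719 bp from its 5′ end. LTBP2, which belongs to the latent TGF-beta binding proteins, had one at 51.5 and 54.9 with SMC1 in the ICM list alone. FBLN1 and the lysyl oxidase genes LOXL1 and LOXL2 were the others, and LOXL2 also had SMC1 in the ICM list alone. The locus over LOXL1 lay 13 bp from the 5′ end of the antisense gene LOXL1-AS1. SMC1 was in all 3 lists at COL4A1, COL4A2, FBLN1 and LOXL1.

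Genes of chromatin architecture had a shared locus at 2 of 43 promoters and at a promoter or over the gene in 5. Those at promoters were CBX1, which encodes HP1 beta, at percentiles 7.81 and 1.31, and TRIM28, the corepressor that KRAB zinc finger proteins recruit, at 35.9 and 22.6. SMC1 was high at TRIM28 in every list, at percentiles 94.7 in control cells, 95.1 after ICM and 92.3 in senescence. HMGA1, an AT-hook protein of senescent heterochromatin, was overlapped at 57.4 and 66.1 with SMC1 in all 3 lists, 867 bp from a control CTCF peak. DNMT3A, a DNA methyltransferase, was overlapped at 35.4 and 19.3 with SMC1 in the ICM list alone. The locus over LMNB2, a lamin gene, lay 156 bp from the 5′ end of TIMM13. None of the genes of CTCF, the cohesin subunits, HMGB1 or HMGB2 was among the 5.

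Mesenchymal transcription factors had a shared locus at 1 of 46 promoters, that of FOXD1, at percentiles 18.5 and 9.30, with SMC1 at 94.8 in control cells, 95.1 after ICM and 70.8 in senescence. FOXL1 and the Hippo factor gene TEAD1 were overlapped, FOXL1 at 70.6 in the ICM list and 19.9 in the senescent list. Of 42 actin cytoskeleton genes ACTA2, DIAPH1 and MRTFA held one, and of 31 growth factor receptor genes PDGFRB (48.6 and 44.9) and ROR1 (48.4 and 8.87). The ACTA2 locus lay within 1 kb of 5′ ends of both ACTA2, smooth muscle actin, and FAS, a death receptor, and was at 20.3 and 16.7 with SMC1 in all 3 lists. HOX genes had 1 of 39, at HOXA3 (1.52 and 14.1).

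The clustered protocadherin genes, cell adhesion genes whose promoters are chosen through CTCF and cohesin, had a shared locus at 3 of 53 promoters (5.66%) and at a promoter or over the gene in 17 (32.1%). The genes of the gamma cluster overlap one another because they share their last exons, so 1 locus is counted for many genes. PCDHGA7 was at percentiles 16.3 and 59.3 with SMC1 in the senescent list alone, PCDHGB7 at 15.9 and 50.4 with SMC1 in control and senescent cells, and PCDHGA10 at 7.71 and 33.0 with no SMC1. All 3 ranked higher in the senescent list than in the ICM list, as did shared loci in general by their medians (43.7 and 24.2).

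ZNF zinc finger genes, many of them KRAB repressors in clusters on chromosome 19, had a shared locus at 13 of 509 promoters (2.55%). The highest were ZNF266 at 41.6 and 37.4, ZNF442 at 28.5 and 31.7, ZNF180 at 27.3 and 42.2, and ZNF814 at 26.8 and 41.5. SMC1 was in none of the lists at ZNF266, ZNF814 and ZNF580. At ZNF564 it was at percentiles 90.2 in control cells, 89.1 after ICM and 96.1 in senescence, and at ZNF566 at 68.0, 93.6 and 91.6. SMC1 at these promoters was thus either absent from every list or present in all 3 in the 6 genes named here other than ZNF180, which had it in control and ICM-treated cells.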

How the data were processed

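CUT&Tag libraries for CTCF and SMC1 were made from control, ICM-treated and senescent IMR90, with 1 library per group. The authors aligned paired reads to hg38 (and to E. coli for calibration) and called peaks in each library on its own with SEACR in stringent mode, keeping the top 1% of regions. The submitters' processing notes name Bowtie2 2.3.4.1, Picard 2.20.7, deepTools and SEACR 1.3. The deposited lists give each peak's total signal and highest signal (coverage) and the region of the highest. All were whole numbers, so no fractional scaling is visible, and signal was only ranked within its own list. The study also describes a CTCF motif filter. Each CTCF list used here holds slightly more peaks than the filtered set described there, so peaks without the motif can be among them. Chromosome 17 peaks reached 83206712, past the GRCh37 length of 81195210, so coordinates are hg38.

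The 1 chrM peak of each list was left out. Whole peaks were merged, and SMC1 peaks matched, at an overlap of 1 bp. A locus with 2 peaks of a list took the rank of the stronger and the summed width. Gene positions and promoter windows came from RefSeq tables on GRCh38.p14, with strand for 98.3% of protein-coding genes (partly from GENCODE, by symbol). A promoter locus had its summit within 1 kb of a 5′ end. Python 3.11.15, pandas 2.3.3, numpy 2.4.6 and scipy 1.17.1 were used, and merging was tested on simulated peaks. Named loci were those with the highest weaker percentile overall (6), at protein-coding promoters (6), over 10 kb from a 5′ end (4), with SMC1 in ICM-treated and senescent but not control cells (6) and with no SMC1 (4), and those at promoters of listed genes (12). Other listed genes, the dense stretches and microRNA genes were named after their values were seen. Loci and lists were chosen with earlier results of these data known. Alternatives were summit windows, shortened lists, joined peaks, other distances and ranking by highest signal.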

Additional observations from a re-analysis of the deposited data

How the results depend on the processing

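Of 56 alternative values, 23 stayed within the interval (or within 1.5 times the count) of the value reported and 33 moved. Joining peaks up to 1 kb apart moved 1 value, the share within 5 kb of a control peak, to 6.58%, and asking for the SMC1 summit inside the locus moved none. Loci built from 100 bp summit windows numbered 1485 and lay on 1227 of the 1428, with SMC1 at 48.2% in control, percentiles of 28.5 and 48.8 in ICM-treated and senescent cells, widths of 1747 and 1070 bp, and 22.4% within 5 kb of a control peak.

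CTCF lists of equal length left 294 loci, with SMC1 at 63.9% in ICM-treated and 51.7% in senescent cells, 13.3% at promoters, percentiles of 44.2 and 62.2 and widths of 1820 and 1118 bp. The upper 50% of the ICM and senescent lists by total signal left 89 loci, with SMC1 at 51.7, 71.9 and 55.1% in control, ICM-treated and senescent cells, 13.5% at promoters, percentiles of 56.7 and 66.8, widths of 2051 and 1155 bp, and 13.5% within 5 kb of a control peak. Both settings keep peaks of higher signal by construction. Their percentiles are ranks within the full lists, because peaks were not ranked anew in the shortened lists. SMC1 lists of equal length gave 40.1% in control and 45.7% in ICM-treated cells.

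Promoter shares were 19.1% at 500 bp, 27.1% at 2 kb and 18.8% with protein-coding genes alone. Ranking by highest signal gave a median percentile of 36.7 in ICM-treated cells. A control peak lay within 2 kb of 3.08% and within 10 kb of 14.3%. Windows of 500 bp on the ICM summit, added after the data were seen, gave SMC1 at 43.98, 56.9 and 45.1%.

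No paired analysis was possible because each group has 1 library. Leaving out a replicate was not possible for the same reason. The lists hold no read numbers, so depth is unknown, and a locus without a peak can hold signal below the threshold of its list. Most of the 1428 depend on the length of the lists compared, since 20.6% of them were left with CTCF lists of equal length.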

Other observations

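Small RNA genes were also found under shared loci. A locus on chromosome 12 covered MIR200C and MIR141, a pair of microRNA genes known as guardians of the epithelial state, at percentile 48.2 in the ICM list and 77.7 in the senescent list, with no SMC1 peak in any list. Its nearest control CTCF peak lay 18476 bp away. Genes of 5 other microRNAs were covered, among them MIR1226 (22.5 and 76.2, SMC1 in the ICM list alone) and MIR614 (36.9 and 13.8, no SMC1). In all, 7 of 1911 microRNA genes and 8 of 443 tRNA genes lay under shared loci, while 87 and 100 lay under any CTCF locus. Of 19974 protein-coding genes, 904 lay under shared loci and 5655 under any CTCF locus. Of all CTCF loci 14.7% were shared.

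Promoters of 15 fibroblast marker genes held CTCF peaks in 2 control, 5 ICM and 2 senescent cases and SMC1 peaks in 7, 5 and 4 cases. Promoters of 4 endothelial markers held none in any of the 6 lists. Of 6 epithelial markers 1 had an SMC1 peak in control and 1 in senescent cells, and of 5 leukocyte markers 1 had an SMC1 peak in control and 1 in ICM-treated cells. These counts give the presence of peaks and not the expression of the genes. Of all 19630 protein-coding genes, 3102 had a CTCF locus of any list at a promoter. That share is not given here for each list or for SMC1, so the marker groups are not compared.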
